A study of Mus musculus with 8 samples.

Results

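Metallothioneins are small, cysteine-rich proteins that bind zinc and copper in the cytosol. Transporters of the SLC39 family (also called ZIP) bring zinc into the cytosol, and those of the SLC30 family (also called ZnT) move it out of the cytosol, across the plasma membrane or into vesicles and the Golgi. MTF1 is the zinc-sensing transcription factor that binds short metal response elements (MREs) in the promoters of metallothionein genes and of the exporter gene Slc30a1. In the mouse ovary, zinc is best known for its part in oocyte meiosis and egg activation. The genes described here are 10 of the 41591 gene IDs in the count tables: the metallothionein genes Mt1, Mt2 and Mt3, the importer genes Slc39a14, Slc39a8, Slc39a10 and Slc39a6, the exporter genes Slc30a1 and Slc30a5, and Mtf1. They were found by gene ID, and all 10 had a row. They were chosen by the measured counts, because Slc39a14, Mt1, Mt2 and Mt3 were lower in double knockout ovaries, so their values in that comparison are given as a description, and nothing is inferred from whether they pass a test.

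The data are RNA-seq counts of 8 libraries of whole ovaries from female C57BL/6 mice. For 4 of them (DKO) the genes of both the insulin receptor, Insr, and the IGF1 receptor, Igf1r, were conditionally knocked out, and the other 4 (Control) came from littermates with the genotype wild-type, Pgr-Cre positive. Mice of both groups were about 3 weeks old and superovulated, with 4 IU of eCG and then 5 IU of hCG after 48 h, and their ovaries were removed 12 h after hCG. The labels name Pgr-Cre, Cre under the progesterone receptor gene, for the controls and no Cre for the DKO. Pgr is not expressed in every ovarian cell type, so Cre does not act in all cells of the tissue. The libraries held 33145056 to 39257648 counts. Insr was at 111 to 147.5 CPM in DKO and 139.9 to 162 CPM in controls, and Igf1r at 199 to 247 CPM in DKO and 195.9 to 262.8 CPM in controls, where CPM is the count scaled to library size with TMM factors. The groups overlapped in both genes and neither passed the test (adjusted p = 0.226 for Insr and 0.639 for Igf1r). Counts over a whole gene in whole ovaries do not check a deleted exon in some of the cells. Control 1 and DKO 2 stood apart by genes of the oviduct, the tube attached to the ovary. The summed level of the oviduct markers Ovgp1, Foxj1 and Pax8 was 762 CPM in DKO 2 and 1189 CPM in control 1, against 3.74 to 4.57 CPM in the other DKO and 4.75 to 28.1 CPM in the other controls. DKO 1 and 2 stood apart in Hbb-bs, a beta-globin gene, with 24 and 36 counts. DKO 3 and 4 had 9669 and 15412 counts, and the controls 3919 to 11432. Hba-a1, an alpha-globin gene, was at 103 and 248 CPM in DKO 1 and 2, and at 171 and 153 CPM in DKO 3 and 4. Whether the libraries differ in genetic background was not tested. No marker of granulosa cells, steroid-producing cells or oocytes was at 0 over the 8 libraries. The same held for every other marker examined, so nothing on the tissue is read from this.

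Mt1, Mt2 and Mt3 lie in that family's cluster on chromosome 8, and their promoters are shown to mark where the letters of an MRE core occur. The windows are the 250 bases before the RefSeq start site in GRCm38.p6, all on the plus strand, at chr8:94178839-94179088 for Mt1, chr8:94172368-94172617 for Mt2 and chr8:94152357-94152606 for Mt3. Capitals mark the MRE core, searched as TGCACNC or TGCGCNC on both strands.
Mt1: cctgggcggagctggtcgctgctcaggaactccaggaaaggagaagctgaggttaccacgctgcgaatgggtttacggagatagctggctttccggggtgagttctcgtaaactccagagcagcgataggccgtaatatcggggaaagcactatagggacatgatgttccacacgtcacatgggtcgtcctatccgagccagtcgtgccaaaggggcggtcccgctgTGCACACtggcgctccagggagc
Mt2: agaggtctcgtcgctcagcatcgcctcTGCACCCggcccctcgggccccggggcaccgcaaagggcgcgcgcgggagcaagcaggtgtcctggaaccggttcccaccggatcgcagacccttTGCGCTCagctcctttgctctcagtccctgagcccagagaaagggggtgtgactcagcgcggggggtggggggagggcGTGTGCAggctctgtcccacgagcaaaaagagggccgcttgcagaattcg
Mt3: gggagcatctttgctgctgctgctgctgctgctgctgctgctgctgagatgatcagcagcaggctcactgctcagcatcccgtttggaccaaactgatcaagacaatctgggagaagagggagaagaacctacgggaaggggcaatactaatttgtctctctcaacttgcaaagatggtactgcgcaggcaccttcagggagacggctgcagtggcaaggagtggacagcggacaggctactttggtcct
These windows held 1 match in Mt1, 3 in Mt2 and none in Mt3. Over the whole window in the RefSeq table, which runs 50 bases further into the gene, the number was 3 for Mt1, 4 for Mt2 and 1 for Mt3. The added Mt1 matches lay at bases 3 to 9 and 21 to 27 after the RefSeq start site, and the Mt3 match at bases 28 to 34. Other start sites of these genes were not examined. Side and distance therefore hold for the RefSeq start alone, and matches outside the window are not counted. Of 32851 promoters of this length in the RefSeq table, 25.7% held at least 1 match, 1.97% at least 3 and 0.517% at least 4. Promoters of 8 of the 10 genes were in the table, and those of Slc39a14 and Slc39a6 were not. Slc30a1 held 2 matches, Slc30a5 1, Mtf1 none, and Slc39a10 none in its 2 promoters, while 1 of the 2 promoters of Slc39a8 held 1. A match shows letters only and no binding.

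All 3 metallothionein genes were lower in DKO ovaries, by about the same factor for Mt1 and Mt3 and by a larger one for Mt2. Mt1 (gene ID 17748; chromosome 8, 94179084 to 94180327, GRCm38.p5 as for all genes here) had 136, 175, 157 and 181 CPM in DKO 1 to 4 and 300.4, 389.8, 746 and 449 CPM in controls 1 to 4. The groups did not overlap, and control 3 was the highest library. The log2 fold change, DKO over control, was -1.54 ± 0.25 (SE), from 162 ± 20.3 CPM in DKO and 472 ± 193 CPM in controls (mean ± SD, n = 4 each). Mt2 (gene ID 17750, 94172618 to 94173567) was at 77.2, 129, 119 and 155 CPM in DKO 1 to 4 and at 271, 489, 922 and 478 CPM in controls 1 to 4. Control 3 was again the highest library, DKO 1 was the lowest, and no DKO library reached a control. The log2 fold change of Mt2 was -2.17 ± 0.36. Mt3 (gene ID 17751, 94152607 to 94154148), best known from the brain, was far rarer, at 4.87, 4.23, 6.33 and 7.31 CPM in DKO 1 to 4 and 10.7, 15.3, 21.6 and 14.1 CPM in controls 1 to 4. Its groups did not overlap either, and its log2 fold change was -1.44 ± 0.25. In bulk tissue, fewer cells of a type and less RNA per cell cannot be told apart.

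Mt1, Mt2 and Mt3 together took 0.0219% to 0.0331% of all counts in DKO and 0.0617% to 0.164% in controls. The balance between the 2 abundant genes also differed. Mt2 had 0.569, 0.738, 0.761 and 0.859 counts per count of Mt1 in DKO 1 to 4, against 0.902, 1.25, 1.24 and 1.06 in controls 1 to 4. By raw counts Mt1 thus led in every DKO library, and Mt2 led in 3 of the 4 controls. These counts are not scaled to exon length, which is 760 bases for Mt1 and 556 for Mt2. Per kilobase of exon, Mt2 had the higher mean in both groups, and the libraries of Mt1 and Mt2 overlapped. The spread was wider in controls, where the highest library was 2.48 times the lowest for Mt1 and 3.40 times for Mt2, against 1.33 and 2.01 times in DKO. Without control 3, the highest library, the ratios over the other 3 controls were 1.495 for Mt1 and 1.80 for Mt2. Leaving out the highest library of 1 group alone must lower its ratio, so nothing is read from this. Control 3 was also the library highest in neutrophil markers (24.9 CPM summed over 7 genes, against 2.23 to 3.79 CPM in DKO and 3.65 to 11.2 CPM in the other controls) and in smooth muscle markers (3482 CPM summed over 5 genes, against 1428 to 2398 CPM in DKO and 1870 to 3004 CPM in the other controls). Macrophage markers, summed over 7 genes, ran from 199 to 251 CPM in DKO and from 198 to 295 CPM in controls, and control 3 was the lowest of the 8 libraries. Markers of theca and other steroid-producing cells, summed over 6 genes, did not overlap, with 13450 to 18180 CPM in DKO and 7217 to 13110 CPM in controls. Control 3 was the highest control. Taken singly, Cyp11a1, Hsd3b1 and Lhcgr were higher in DKO without overlap, as were 5.7% of all genes tested. The groups overlapped in Cyp17a1, Star and Ptch1. No neutrophil, smooth muscle or macrophage marker was called, and 3 of the 7 neutrophil markers were too low to test. Of the 6 steroid cell markers 1 was called higher (Hsd3b1, adjusted p = 0.0478), against 1.26% of all genes called. The 4 tested neutrophil markers and all 5 smooth muscle markers lay below 0. By edgeR, 4 and 3 of them had an unadjusted p under 0.05, and 0 of the 7 macrophage markers did. Of all 16870 genes tested 2599 did, so nothing is read from the absence of calls. S100a9, a neutrophil marker, was lower in DKO without overlap, as were 3.52% of all genes. The part of these cells in the metallothionein values was not tested. Without control 3 the log2 fold changes were -1.23 for Mt1, -1.78 for Mt2 and -1.23 for Mt3.

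**Figure D1:**
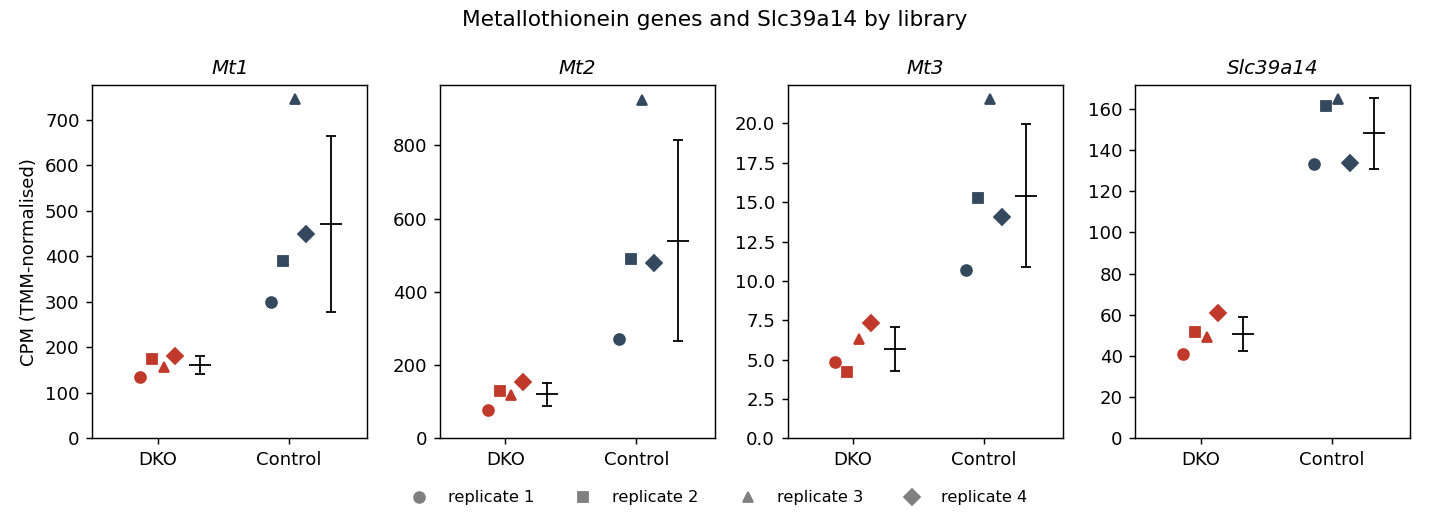
CPM of Mt1, Mt2, Mt3 and Slc39a14 (y axes, linear from 0) in 4 DKO and 4 control libraries, with 1 symbol per library and the mean ± SD beside each group. In each panel all 4 DKO libraries lie below all 4 controls, and control 3, the triangle, is the highest library.

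Slc39a14 (gene ID 213053, chromosome 14, 70303467 to 70351424), whose product carries zinc, iron and manganese into cells, had the smallest SE of the 4 lower genes. It was at 41.0, 51.8, 49.1 and 60.9 CPM in DKO 1 to 4 and at 133, 161, 165 and 134 CPM in controls 1 to 4. The highest DKO library, at 60.9 CPM, lay far below the lowest control, at 133 CPM. The log2 fold change was -1.55 ± 0.14, and it ran from -1.65 to -1.46 over 17 alternative analyses. Of the 9 genes that passed the filter on low counts, all but Slc30a1, 4 had an adjusted p under 0.05 in edgeR's quasi-likelihood test over 16870 genes (Mt1, Mt2, Mt3 and Slc39a14, all lower), against 0.498% of all genes called lower and 0.759% called higher. The same 4 were those in which all DKO libraries lay below all controls, against 3.52% of all genes lower, 5.7% higher and 9.22% in either direction without overlap. These 4 were chosen for being lower, so nothing is read from either count. The count also depends on single libraries, since Mt1, Mt2 and Mt3 were past the threshold in 2, 2 and 3 of the 8 fits with 1 library left out, and Slc39a14 in 8. The number of calls over all genes was 212 and depended on single libraries, from 2 without control 2 to 506 without control 3.

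The other importer genes showed no such separation. Slc39a8 (gene ID 67547, chromosome 3, 135816884 to 135888572), which carries zinc and manganese, was at 7.51, 14.0, 8.65 and 8.55 CPM in DKO 1 to 4 and at 44.8, 8.02, 7.31 and 9.18 CPM in controls 1 to 4. Apart from DKO 2 and control 1 the libraries of both groups lay together. Those are the libraries high in oviduct markers, and in both groups the same library was highest for Slc39a8 and for Ovgp1, an oviduct glycoprotein gene (723 CPM in DKO 2 and 1145 CPM in control 1). The log2 fold change of Slc39a8 was -0.84 ± 0.61 with all libraries, 0.028 without both of these, and 0.26 without control 1. Slc39a4, the gut zinc importer gene, which was chosen after its values were seen, was also highest in them, at 6.32 CPM in DKO 2 and 12.5 CPM in control 1, against 0.507 to 1.46 CPM in the other DKO and 0.769 to 1.46 CPM in the other controls.

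**Figure D2:**
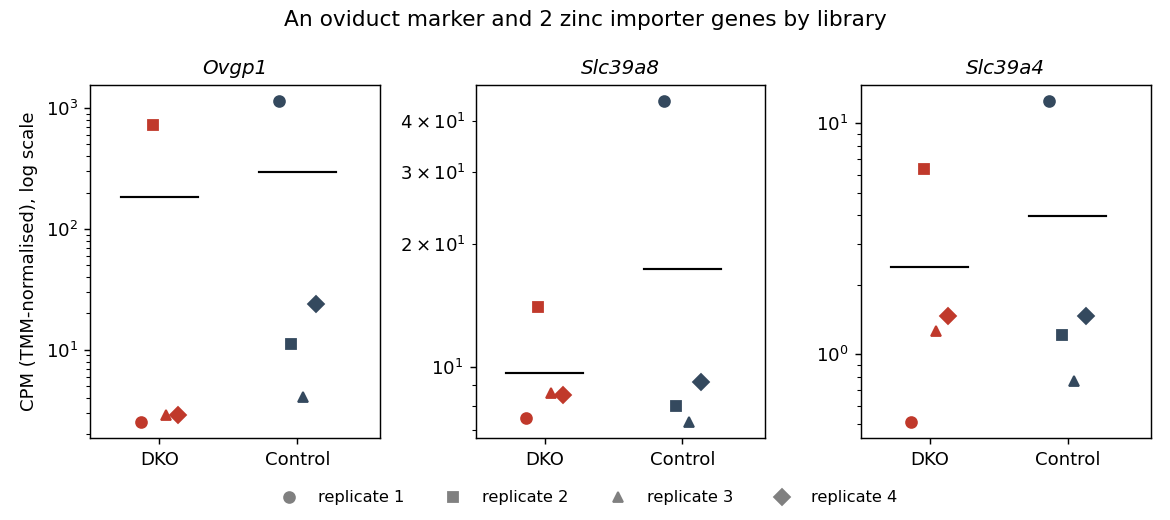
CPM of the oviduct marker Ovgp1 and of the importer genes Slc39a8 and Slc39a4 (y axes, log scale) in 4 DKO and 4 control libraries, with 1 symbol per library and a line at each group mean. DKO 2 and control 1 are the highest libraries of their groups in all 3 panels.

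Slc39a10 and Slc39a6 encode partner importers that supply zinc to mouse oocytes. Slc39a10 (gene ID 227059, chromosome 1, 46807544 to 46925773) was at 87.0, 103, 104 and 125 CPM in DKO 1 to 4 and at 124, 114, 94.2 and 147 CPM in controls 1 to 4. Slc39a6 (gene ID 106957, chromosome 18, 24579881 to 24603817) was at 71.3, 71.5, 73.7 and 83.6 CPM in DKO 1 to 4 and at 81.1, 89.2, 83.1 and 110.4 CPM in controls 1 to 4. The groups overlapped in both genes, with log2 fold changes of -0.20 ± 0.15 for Slc39a10 and -0.28 ± 0.12 for Slc39a6. Oocyte markers, summed over 9 genes, ran from 108 to 367 CPM in DKO and from 97.7 to 374 CPM in controls. The libraries were not in the same order, since DKO 3 and control 2 were highest in oocyte markers and DKO 4 and control 4 in both genes. The part of oocyte RNA in these values was not tested.

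Slc30a5, which loads zinc into the secretory pathway, and Mtf1 were nearly level. Slc30a5 (gene ID 69048, chromosome 13, 100802645 to 100833570) was at 90.2, 84.1, 93.5 and 109 CPM in DKO 1 to 4 and at 87.7, 91.8, 98.7 and 111 CPM in controls 1 to 4. Its log2 fold change was -0.046 ± 0.11. Mtf1 (gene ID 17764, chromosome 4, 124802549 to 124849800) was at 30.8, 29.1, 32.9 and 34.6 CPM in DKO 1 to 4 and at 31.8, 32.8, 27.8 and 39.8 CPM in controls 1 to 4. Its log2 fold change was -0.053 ± 0.12, and the DKO libraries lay inside the control range. The level of Mtf1 mRNA says nothing of how much zinc its protein binds.

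**Figure D3:**
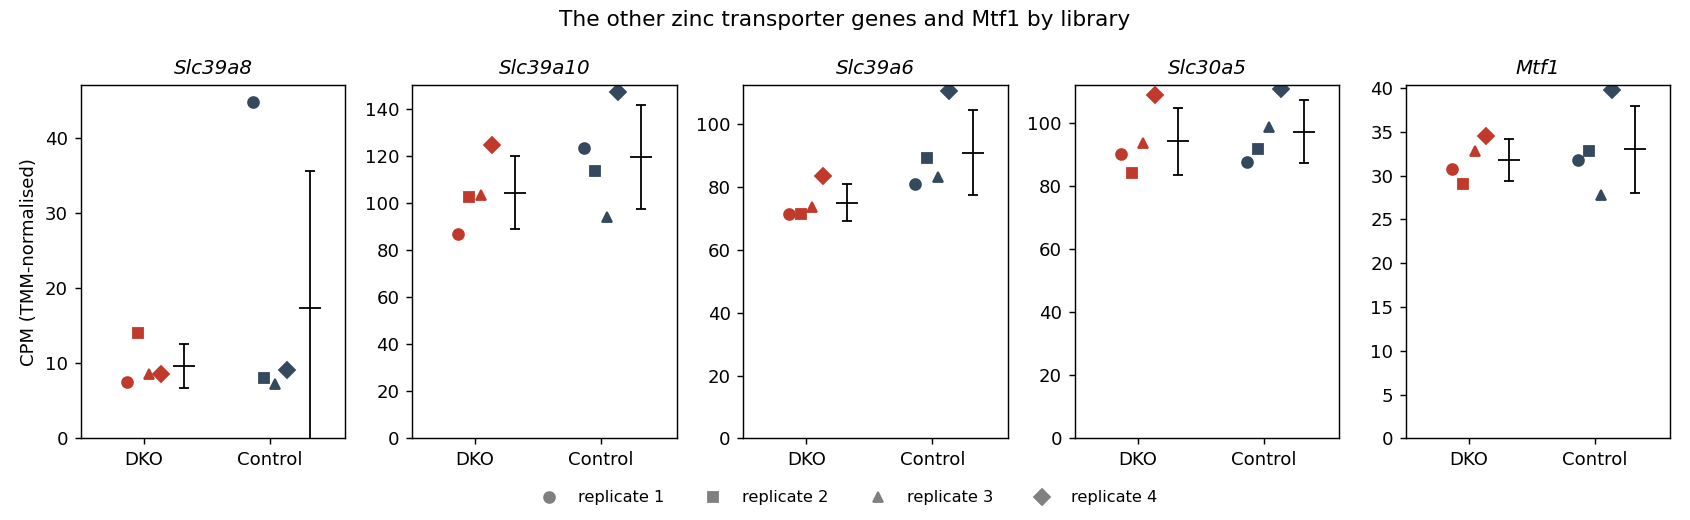
CPM of Slc39a8, Slc39a10, Slc39a6, Slc30a5 and Mtf1 (y axes, linear from 0) in 4 DKO and 4 control libraries, with 1 symbol per library and the mean ± SD beside each group. The groups overlap in all 5 panels, and control 1 stands alone in Slc39a8 at 44.8 CPM, where the lower end of the control SD bar is cut at 0.

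Slc30a1 (gene ID 22782, chromosome 1, 191906689 to 191913247), the zinc exporter of the plasma membrane and the transporter gene best known as a target of MTF1, could not be read. It had 1, 4, 2 and 3 counts in DKO 1 to 4 and 1, 2, 0 and 0 counts in controls 1 to 4, and it did not pass the filter. In the count tables its exons are listed on 2 sequences, chromosome 1 and another sequence of the assembly. Of 1010 protein-coding genes listed on more than 1 sequence, 52.4% had at most 10 counts over the 8 libraries, against 22.0% of 20651 genes listed on 1. Of the zinc exporter and importer genes that are not among the 10, Slc30a4 (0 counts), Slc39a7 (1 count) and Slc39a2 (66 counts) were also listed on more than 1 sequence. No statement on expression is made for these genes.

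Per kilobase of exon, the levels covered a wide range and their order differed little between the groups. In DKO the order was Mt2 (216 ± 58.3 CPM per kb), Mt1 (213 ± 26.7), Slc30a5 (28.2 ± 3.18), Slc39a6 (19.3 ± 1.5), Slc39a10 (14.0 ± 2.08), Mt3 (10.6 ± 2.59), Slc39a14 (6.09 ± 0.983), Mtf1 (4.17 ± 0.313) and Slc39a8 (2.35 ± 0.714; mean ± SD, n = 4). In controls it was Mt2 (971 ± 493 CPM per kb), Mt1 (620.3 ± 254), Slc30a5 (29.1 ± 3.01), Mt3 (28.6 ± 8.43), Slc39a6 (23.4 ± 3.45), Slc39a14 (17.8 ± 2.06), Slc39a10 (16.0 ± 2.95), Mtf1 (4.33 ± 0.653) and Slc39a8 (4.20 ± 4.45). Neighbours in that order whose libraries overlapped were Mt2 with Mt1 and Slc39a10 with Mt3 in DKO. In controls they were Mt2 with Mt1, Slc30a5 with Mt3, Mt3 with Slc39a6, Slc39a14 with Slc39a10, and Mtf1 with Slc39a8. Slc39a14 thus stood beside Slc39a10 in controls and below it in DKO.

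Within the groups, libraries high in Mt1 were high in Mt2. With each group's mean removed from log2 CPM, Pearson's r over the 8 libraries was 0.95 for Mt1 with Mt2, 0.81 for Mt2 with Mt3 and 0.78 for Mt2 with Slc39a14. It was 0.89 for Slc39a6 with Mtf1 and 0.85 for Slc39a10 with Mtf1, a separate pattern, with -0.22 for Mt2 with Mtf1. These values are descriptions, and the libraries share depth and the make-up of each ovary. Of 11562 genes compared, those most like Mt1 by this measure were Rwdd1 (r = 0.98), Fut8 (0.98) and Ypel5 (0.98). Those most like Mt2 were Ppp1r18, Marchf3 and Tpd52l1 (0.99 each), and those most like Slc39a14 were Dusp12 (0.94), Alkbh1 (0.93) and Ube2o (0.93). None of these 9 was called between the groups, against 1.26% of all genes tested. The highest of 11562 values of r over 8 libraries are high in any case, so no link between genes is read from them.

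No gene around the metallothionein cluster was called. Of 14 tested genes within 500 kb of the cluster, none passed the edgeR test, with 1 at an unadjusted p under 0.05, and DESeq2 called 1 lower (Nlrc5, an immune gene regulator, adjusted p = 0.0397 by DESeq2). The nearest were Ogfod1 (-0.14 ± 0.16, adjusted p = 0.722) and Bbs2 (0.070 ± 0.12, adjusted p = 0.840) on one side and Nup93 (-0.18 ± 0.088, adjusted p = 0.379) on the other, 34213 bases from Mt1. The median log2 fold change of the 14 was -0.076, against -0.021 over all 16870 genes tested. Of those 16870 genes, 1.26% passed the edgeR test, 2599 had an unadjusted p under 0.05 and DESeq2 called 1107. Nothing is therefore read from the absence of edgeR calls near the cluster. Mt4, the fourth gene of the family, known from stratified epithelia, had 1 to 3 counts in each DKO library and 1 to 6 in each control.

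Of 19 other zinc transporter genes 11 could be tested, and none passed the edgeR test, with 4 at an unadjusted p under 0.05. Of all 16870 genes tested, 1.26% passed and 2599 had an unadjusted p under 0.05, so nothing is read from the absence of calls. The log2 fold changes of the 11 lay on both sides of 0, 6 below and 5 above, with a median of -0.0097. The smallest adjusted p belonged to genes that were higher in DKO. Slc39a3, an importer gene, was at 51.1, 45.9, 44.7 and 38.0 CPM in DKO 1 to 4 and at 33.3, 30.8, 32.04 and 28.2 CPM in controls 1 to 4 (log2 fold change 0.53 ± 0.11, adjusted p = 0.0574). Slc39a11, whose product sits mostly on internal membranes, was at 39.3 ± 6.51 CPM in DKO and 25.7 ± 3.15 CPM in controls (0.61 ± 0.14, adjusted p = 0.0681). Slc30a2, the zinc exporter of milk secretion, was at 7.19 ± 1.48 CPM in DKO and 4.35 ± 1.09 CPM in controls (0.72 ± 0.24, adjusted p = 0.173). All DKO libraries lay above all controls in these 3 genes, as in 5.7% of all genes tested. They lay below in 1 of the 11, the importer gene Slc39a1 (-0.22 ± 0.098, adjusted p = 0.315), as in 3.52% of all genes. DESeq2 called Slc39a3, Slc39a11 and Slc30a2 higher (adjusted p = 0.00133, 0.00422 and 0.0439), and it called 1107 of the 16870 genes.

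**Figure D4:**
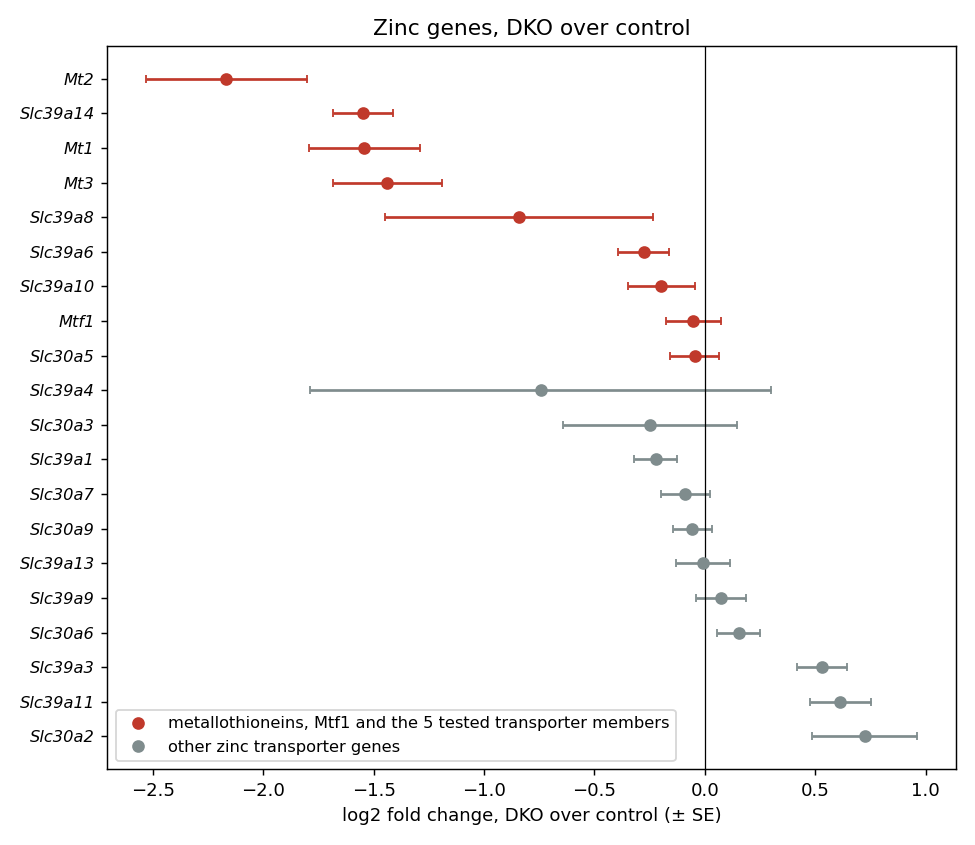
Log2 fold change, DKO over control, with SE bars (x axis), for the 9 tested genes of the chosen set in red and 11 other zinc transporter genes in grey. Mt2, Slc39a14, Mt1 and Mt3 lie between -2.17 and -1.44, and the grey points lie between -0.74 and 0.72.

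Of 7 other genes known to respond to metals or to MTF1, 6 were tested, 4 lay below 0 and 1 was called, against 1.26% of all genes tested. Gclc, whose enzyme makes the first step of glutathione synthesis, fell to 85.5, 95.4, 116 and 114 CPM in DKO 1 to 4, against 149.9, 190.1, 176 and 178 CPM in controls 1 to 4. The log2 fold change was -0.76 ± 0.13 (adjusted p = 0.0288). Its adjusted p was 0.0677, 0.0792 and 0.0689 without DKO 1, 2 and 3, and 0.131 and 0.0864 without controls 2 and 4. Ndrg1, a gene of hypoxia and metal stress, was at 57.8 ± 13.7 CPM in DKO and 107 ± 16.9 CPM in controls (-0.88 ± 0.18, adjusted p = 0.0552). Csrp1, a LIM domain gene, was at 324 ± 53.3 CPM in DKO and 444 ± 117 CPM in controls (-0.45 ± 0.20, adjusted p = 0.303). The groups did not overlap in Ndrg1 and overlapped in Csrp1.

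Slc39a14 also carries iron and manganese, so genes that handle copper, iron and manganese were examined. Of 26 such genes, all tested, 1 fell and 1 rose, 11 lay below 0 and 15 above, and the median was 0.079. Over all genes 0.498% fell and 0.759% rose. Steap2, a metalloreductase gene, fell to 44.4, 49.2, 43.7 and 57.1 CPM in DKO 1 to 4, against 80.8, 90.9, 90.6 and 100.4 CPM in controls 1 to 4 (-0.90 ± 0.11, adjusted p = 0.0132). Every DKO library lay well below every control, and its adjusted p was 0.0579 without DKO 3 and 0.0723 without control 2. Aco1, whose protein serves as an aconitase or as an iron-regulatory RNA-binding protein, rose to 135 ± 11 CPM in DKO, against 93.8 ± 7.14 CPM in controls (0.52 ± 0.097, adjusted p = 0.0409). Its adjusted p was 0.102, 0.106, 0.0950 and 0.0570 without DKO 1, 2, 3 and 4, and 0.161 and 0.0953 without controls 2 and 4. Heph, a ferroxidase gene, was at 205 ± 22.4 CPM in DKO and 291 ± 84.8 CPM in controls (-0.51 ± 0.20, adjusted p = 0.242).

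Glucocorticoids and IL-6 are known inducers of metallothionein genes in the liver, and IL-6 also induces Slc39a14 there. Of 9 genes of glucocorticoid action, 8 were tested, 2 fell and none rose, against 0.498% of all genes that fell, 6 lay below 0, and the median was -0.61. Tsc22d3, a glucocorticoid-induced leucine zipper gene, fell to 53.3, 56.6, 74.4 and 86.5 CPM in DKO 1 to 4, against 97.6, 133, 135 and 155 CPM in controls 1 to 4 (-0.94 ± 0.18, adjusted p = 0.0451). Hsd11b1, whose enzyme regenerates active glucocorticoid, fell to 3.03 ± 0.382 CPM in DKO, against 6.85 ± 0.831 CPM in controls (-1.18 ± 0.19, adjusted p = 0.0288). Zbtb16, a transcription factor gene, was at 6.42, 11.9, 20.3 and 23.8 CPM in DKO 1 to 4 and at 42.5, 61.3, 47.0 and 63.3 CPM in controls 1 to 4 (-1.78 ± 0.37, adjusted p = 0.0596). Over the other analyses the adjusted p of Zbtb16 ran from 2.6e-05 by DESeq2 to 0.199 without control 2, and it passed in 6 of 17. All DKO libraries lay below all controls in these 3 genes and in the clock gene Per1 (-0.50 ± 0.20, adjusted p = 0.267), as in 3.52% of all genes. Without DKO 1, 2 and 3 the adjusted p of Tsc22d3 was 0.108, 0.118 and 0.116, and without controls 2, 3 and 4 it was 0.167, 0.0587 and 0.135. That of Hsd11b1 was 0.0720, 0.0722, 0.0884 and 0.0555 without DKO 1, 2, 3 and 4, and 0.131 and 0.0872 without controls 2 and 4. The 2 genes above 0 were Sgk1 (0.53 ± 0.25, adjusted p = 0.353) and Hsd11b2 (0.23 ± 0.26, adjusted p = 0.752). Fkbp5 had 2 counts over the 8 libraries and is another gene listed on 2 sequences.

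Of 12 genes of IL-6 and STAT3 signalling, 11 were tested, 1 fell and none rose, against 0.498% of all genes that fell, 10 lay below 0, and the median was -0.66. Lif, a cytokine gene of that family, fell to 2.97, 4.06, 5.75 and 6.20 CPM in DKO 1 to 4, against 8.04, 15.2, 16.9 and 16.5 CPM in controls 1 to 4 (-1.58 ± 0.30, adjusted p = 0.0415). Without DKO 1, 2, 3 and 4 its adjusted p was 0.0828, 0.107, 0.103 and 0.0515, and without controls 2, 3 and 4 it was 0.152, 0.0512 and 0.129. Lifr, the receptor gene for LIF, was at 65.6 ± 19.4 CPM in DKO and 103 ± 9.97 CPM in controls (-0.66 ± 0.19, adjusted p = 0.131). Stat3, the transcription factor gene downstream of these receptors, was at 252.3 ± 64.8 CPM in DKO and 382 ± 47.5 CPM in controls (-0.60 ± 0.18, adjusted p = 0.145). The 1 gene above 0, Saa3, had the largest change of the list. It was at 16.4 ± 10.6 CPM in DKO and 4.47 ± 3.57 CPM in controls, with overlap (1.87 ± 0.73, adjusted p = 0.261). Whether any of these genes bears on the metallothionein genes or Slc39a14 was not tested.

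**Figure D5:**
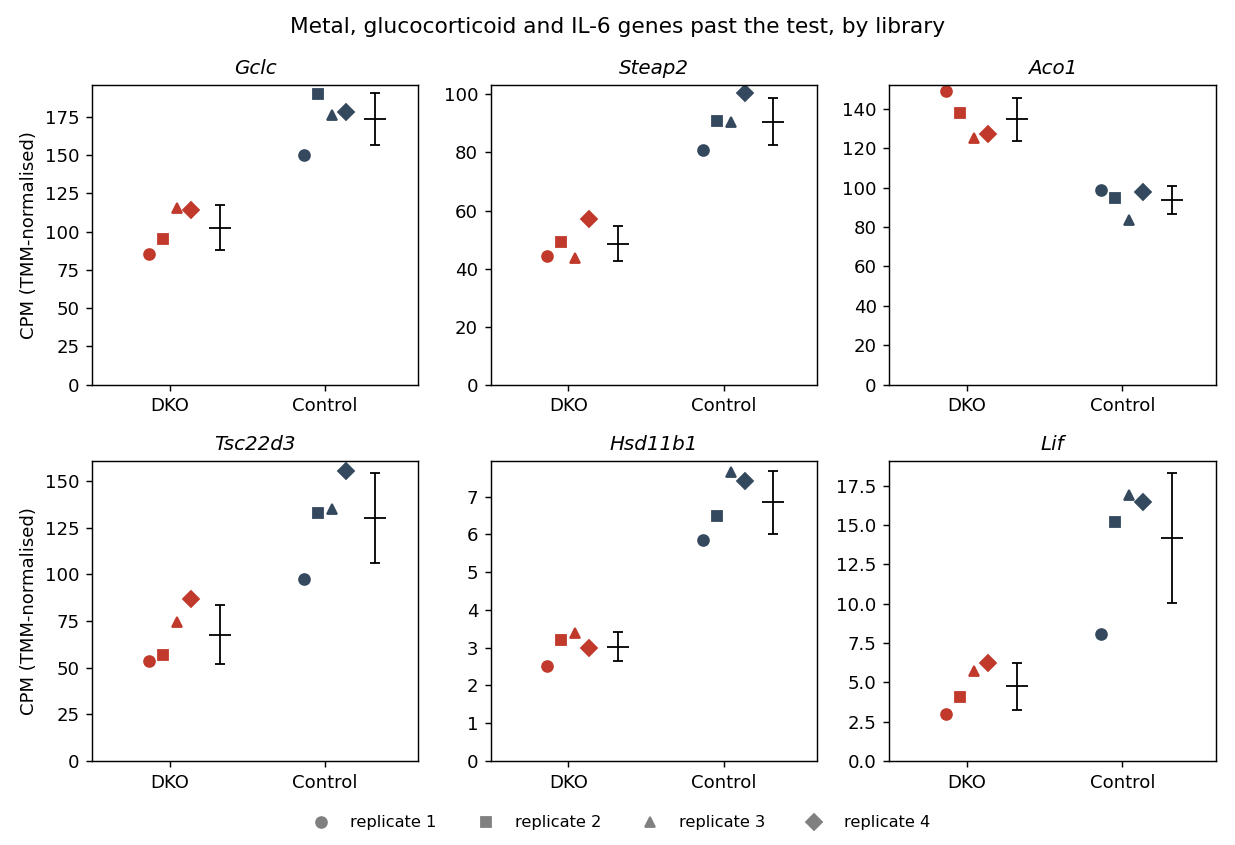
CPM of Gclc, Steap2, Aco1, Tsc22d3, Hsd11b1 and Lif (y axes, linear from 0) in 4 DKO and 4 control libraries, with 1 symbol per library and the mean ± SD beside each group. Aco1 is higher in all 4 DKO libraries than in any control, and the other 5 genes are lower.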

How the data were processed

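The 10 genes, the gene lists and the tests were chosen with earlier results of these data known. For each library the authors deposited raw counts per gene. Per the file headers, the counts were made with featureCounts 1.5.2 on exons, with the reverse-stranded setting and the RefSeq annotation of GRCm38.p5, and the command sets nothing for multi-mapping reads. The submitters' processing notes also name bcl2fastq, Trimmomatic, STAR 2.4.2a and edgeR 3.12.0. Symbols came from a RefSeq table of GRCm38.p6, which matched 96.9% of IDs. Depth was 33145056 to 39257648 counts a library. Groups came from the sample descriptions. The labels do not say that each library is a separate animal, so p-values measure the spread between these samples.

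Genes were kept by filterByExpr (16870 genes) and tested with edgeR 4.0.16 (R 4.3.3), quasi-likelihood F-test, robust, TMM factors of 0.943 to 1.06, two-sided and without covariates, Benjamini-Hochberg adjusted over all genes, threshold 0.05. SE is the size of the log2 fold change over the square root of F. The fit was tested on simulated data. Log2 CPM used a prior count of 2. No 2 libraries of a group were the same within sampling noise (reduced chi-square of at least 24.7). Within DKO it was 33.6 for libraries 1 and 2 and 24.7 for 3 and 4, against 107.9 to 140.9 for the other pairs. Within controls it ran from 27.1 to 143.2. Alternatives covered 2 other scalings, 2 other filters, DESeq2 1.42.0, limma-voom 3.58.1, the replicate number as a block, leaving out each library, and the libraries whose titles carry numbers 249 to 263. A fit without control 1 and DKO 2 was chosen after seeing the data. All 10 genes are named. In each list of other genes the text names those called and, where fewer than 3 were, the 3 with the smallest adjusted p; near the cluster, those within 100 kb; and for Mt1, Mt2 and Slc39a14 the 3 most alike of those averaging 5 CPM or more. Genes named beyond this were chosen after their values were seen. In GENCODE M21 transcripts no stretch of 50 bases of Mt1, Mt2 or Mt3 occurs on the same strand in another gene. RefSeq promoters were searched over 300 bases.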

Additional observations from a re-analysis of the deposited data

Results flagged for a closer look

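Of the genes and marker sums printed in the report, 84 sets of 4 libraries were examined for a library far from the others of its group, and 9 stood apart, where chance alone gives about 1 in 20. In control 1, Slc39a8 was at 44.8 CPM, against 7.31 to 9.18 CPM in the other controls, Slc39a4 at 12.5 CPM, against 0.769 to 1.46 CPM, Ovgp1 at 1145 CPM, against 4.04 to 23.8 CPM, and the oviduct markers together at 1189 CPM, against 4.75 to 28.1 CPM. In DKO 2, Slc39a4 was at 6.32 CPM, against 0.507 to 1.46 CPM in the other DKO, Ovgp1 at 723 CPM, against 2.51 to 2.90 CPM, and the oviduct markers together at 762 CPM, against 3.74 to 4.57 CPM. These 7 sets lie in 2 libraries and Ovgp1 is one of the oviduct markers, so they are not independent. Igf1r was high in DKO 4, at 246.9 CPM, against 199 to 205 CPM in the other DKO. Insr was low in control 3, at 139.9 CPM, against 158 to 162 CPM in the other controls. Genes beyond those of the naming rule were added to this check after their values were seen. The part of oviduct tissue in the values of Slc39a8 and Slc39a4 was not tested.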

How the results depend on the processing

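The genes of each list were counted under 17 alternatives. With DESeq2 size factors, library size only, no filter, the stricter filter and limma-voom, 210 to 246 genes were called, against 212 in the edgeR fit of all libraries. DESeq2 called 1107, the fit with the replicate number as a block 743 and the fit without both libraries high in oviduct markers 97, and leaving out 1 library gave 2 to 506. Other zinc transporters called were 3 by DESeq2 and 2 with the block (Slc39a3 and Slc39a11, higher), against 0, and 0 to 1 with 1 library left out. Metal-responsive genes called were 2 with library size only, with no filter, by DESeq2 and with the block, 0 in the 5 libraries with the higher title numbers and 0 without both oviduct-rich libraries, against 1, and 0 to 2 with 1 library left out. Copper, iron and manganese genes called were 1 in the 5 libraries with the higher title numbers and 1 without both oviduct-rich libraries, against 2, and 0 to 4 with 1 library left out. Glucocorticoid genes called were 3 with the stricter filter, by DESeq2, by limma-voom and with the block (Zbtb16 added), 1 in the 5 libraries with the higher title numbers and 0 without both oviduct-rich libraries, against 2, and 0 to 2 with 1 library left out. The genes were not always the same. Zbtb16 alone was called in the 5 libraries with the higher title numbers and without DKO 1, and Klf9 and Hsd11b1 without control 3. IL-6 and STAT3 genes called were 4 by DESeq2, 4 with the block and 0 by limma-voom, against 1, and 0 to 1 with 1 library left out (Lif without control 1, Il6st without control 3). Near the cluster DESeq2 called 1, against 0, and 0 were called with any library left out. The cause of these changes was not tested.

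Same-numbered libraries share only a number: their deviations from the group means correlated at 0.16, -0.36, 0.31 and 0.47 for numbers 1 to 4, and DKO 2 correlated best with control 1 (0.64). Mt1, Mt2, Mt3 and Slc39a14 stayed below 0 in all 17 alternatives, as groups that do not overlap must nearly always do. Their ranges were -1.73 to -1.23, -2.41 to -1.78, -1.58 to -1.23 and -1.65 to -1.46. Slc39a8 ran from -1.09 to 0.26, Slc30a5 from -0.12 to 0.031 and Mtf1 from -0.13 to 0.048, each with both signs. Mt4 and Slc30a1 were too low to test.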
